A study of Mus musculus with 8 samples.

Results

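Adipocytes made in culture from the mouse preadipocyte line 3T3-L1 were sequenced, and the libraries were examined here for the genes of β-adrenergic, cAMP and protein kinase A (PKA) signaling. The genes were taken by symbol: the β-adrenergic receptors, the G protein α subunits Gnas and Gnai1 to Gnai3, the adenylyl cyclases, the phosphodiesterases, the subunits of PKA, the A kinase anchoring proteins with a numbered symbol and the cGMP kinases Prkg1 and Prkg2. This rule found 49 of the 18088 genes in the count table. siERK3 comprised 4 libraries of adipocytes transfected with siRNA against Erk3, and siNTC comprised 4 libraries of adipocytes given a nontargeting siRNA. Both had a wild-type genotype, received 1.25 nM siRNA per square centimeter through the same reagent, and were used 48 h later. The siRNAs were bought as pools, 1 pool per group, so a change cannot be tied to 1 sequence. The sources do not say whether libraries of a group came from separate differentiations, and a p-value here reflects no more than the scatter of these libraries.

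In fat cells, noradrenaline binds β-adrenergic receptors, which act through the stimulatory G protein to switch on adenylyl cyclase. The enzyme makes cAMP, and cAMP binds the regulatory subunits of PKA and frees the catalytic subunits, which phosphorylate lipases and lipid droplet proteins and so start lipolysis. Phosphodiesterases break cAMP down, inhibitory G proteins hold the cyclases back, and anchoring proteins keep PKA near its substrates. In rodent white fat the β3 receptor (Adrb3), the insulin-activated phosphodiesterase Pde3b and the type IIβ regulatory subunit (Prkar2b) are known as the adipocyte forms of their families.

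The 3 adipocyte forms of the pathway, Adrb3, Pde3b and Prkar2b, fell in siERK3. The other phosphodiesterases went both ways, while of the other regulatory subunits Prkar2a fell and none rose. Adrb3 was 2.48-fold lower, Pde3b 2.09-fold lower and Prkar2b 1.79-fold lower in siERK3 than in siNTC. The G protein α subunits Gnas, Gnai2 and Gnai3 rose by 0.24 to 0.40 on the log2 scale. By symbol, 8 phosphodiesterase genes rose, among them Pde1b, Pde2a and Pde7a. The catalytic subunits Prkaca and Prkacb and the regulatory subunit Prkar1a did not pass the test. Of the 49 genes 48 passed edgeR's filter on low counts, and 32 of these (66.7%) were called at a Benjamini-Hochberg adjusted p under 0.05 by edgeR's quasi-likelihood test, 14 higher and 18 lower in siERK3. Of all 17972 genes tested, 48.7% were called, 24.9% higher and 23.8% lower. The split moved with the scaling, to 12 higher and 24 lower of the 48 genes with upper-quartile factors (39.7% of all calls higher, 60.3% lower) and to 16 higher and 14 lower with library sizes only (65.1% of all calls higher, 34.9% lower, against 51.1% and 48.9% with TMM). The median log2 fold change (siERK3 over siNTC) of the 48 genes was −0.12, and that of all genes was 0.00. A fall of at least 2-fold was called for 4 of the 48 genes (Adrb3, Pde3b, Adcy10 and Pde6b), against 2.28% of all genes, and a rise of at least 2-fold for 0 of the 48 genes, against 4.11% of all genes, the largest upward log2 fold change being 0.86 (Pde1b). The CPM (counts scaled to library size, after TMM) of the groups did not overlap for 30 of the 48 genes, against 43.2% of all genes. The dot plot of fold changes by role gives each gene.

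**Figure D1:**
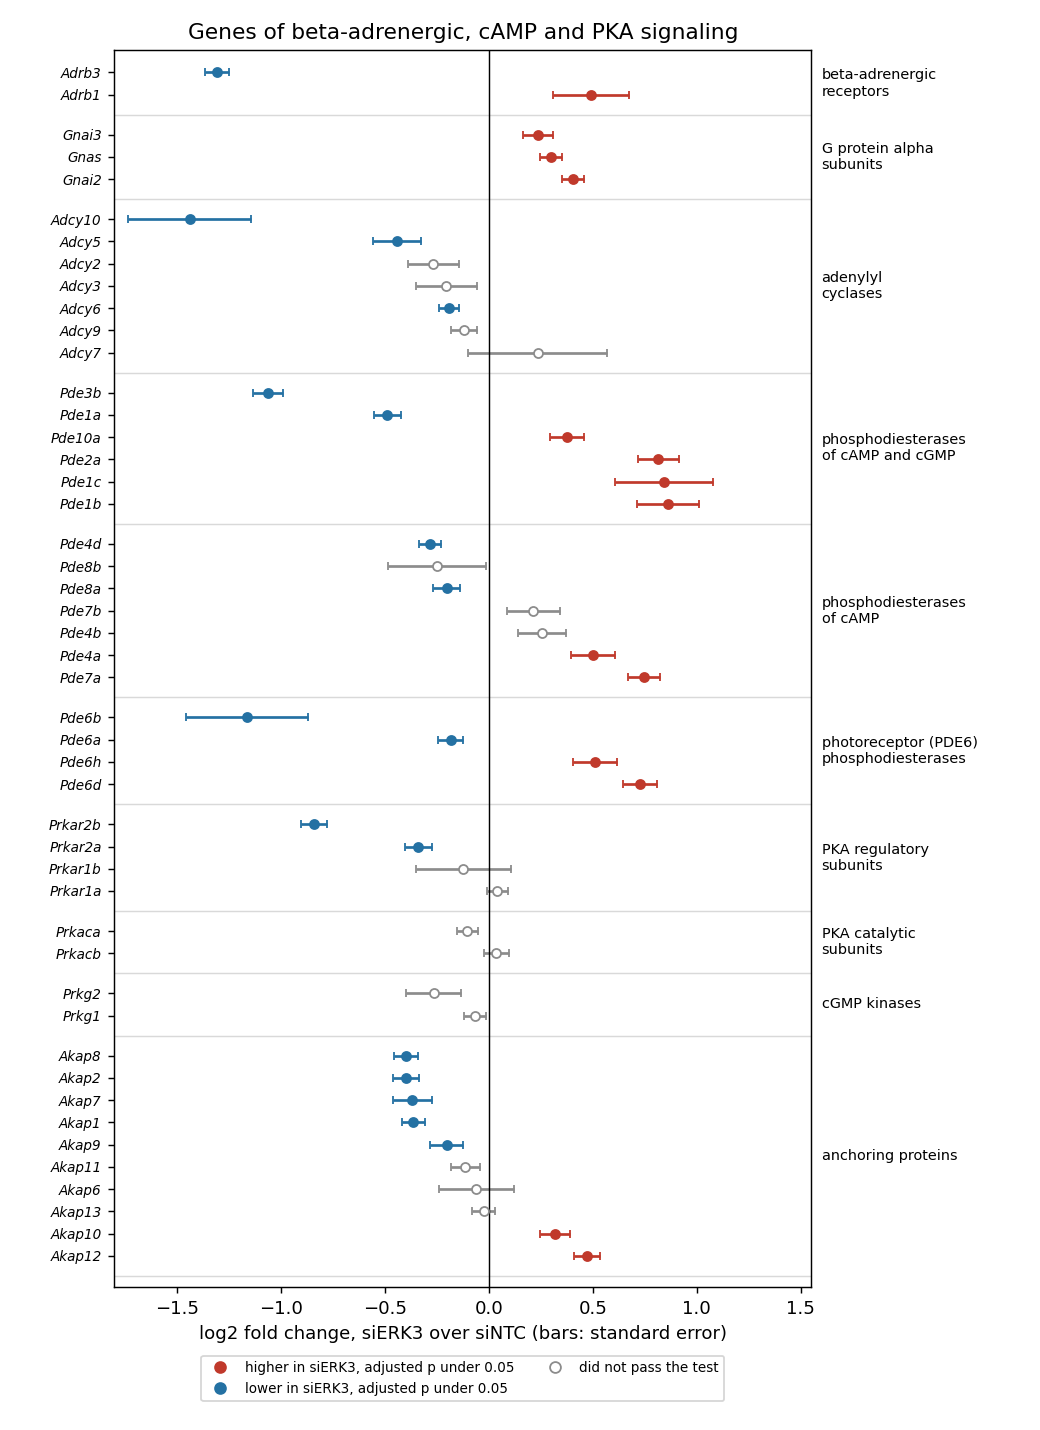
Log2 fold change (siERK3 over siNTC, x axis) of 47 tested genes, grouped by role, with its standard error as a bar. Filled red dots are genes higher and filled blue dots genes lower in siERK3 at an adjusted p under 0.05, and open dots did not pass. Adrb3 at −1.31, Pde3b at −1.06 and Prkar2b at −0.84 stand at the left of their role groups. All 3 G protein subunits lie to the right of 0.

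The targeted gene, Mapk6, which encodes ERK3, had 74.8, 71.6, 68.5 and 63.5 CPM in siERK3 and 588, 572, 558 and 599 CPM in siNTC. Its log2 fold change was −3.06 (SE 0.06, adjusted p = 2.09e-22, edgeR's quasi-likelihood test), in the direction the labels give. Total counts lay between 9854522 and 9943572 per library. All 10 adipocyte markers fell (Adipoq, Fabp4, Cfd, Cidec, Plin1, Lpl, Pparg, Slc2a4, Cebpa and Lep, median log2 fold change −0.77), and their summed level was 17226 to 18330 CPM in siERK3 and 29877 to 32160 CPM in siNTC. Of 7 preadipocyte and fibroblast markers in the table, 6 fell and Ly6a rose (log2 fold change 6.46). Of 7 macrophage and leukocyte markers, 2 were in the table, with a summed level of 6.53 to 9.97 CPM in siERK3 and 6.82 to 9.92 CPM in siNTC. All 15 interferon-stimulated genes rose, with a median log2 fold change of 7.99. The part of these changes in the results that follow was not tested. In bulk RNA, fewer cells of a type and less RNA per cell cannot be told apart.

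Promoter sequence is shown for 5 genes that differ in their response and in the motifs of their promoters. RefSeq windows of build GRCm38.p6, from 250 bases before to 50 bases after the start of transcription, were found for 39 of the 49 genes (84 windows, with several starts for some genes). Adrb3, Adcy6, Pde3b, Pde6a, Pde7a, Gnai2, Akap2, Akap12 and Prkg2 were among those with no entry. The windows were searched on both strands for TGACGTCA, the cAMP response element bound by CREB, for its core TGACG, which TGACGTCA contains, and for GTAAACA, the core bound by forkhead factors such as FOXO1. Capitals mark TGACG, TGACGTCA and GTAAACA or their reverse complements, and each sequence runs 5′ to 3′ on the strand of its gene.
Prkar2b, chr12:32061228-32061527, minus strand: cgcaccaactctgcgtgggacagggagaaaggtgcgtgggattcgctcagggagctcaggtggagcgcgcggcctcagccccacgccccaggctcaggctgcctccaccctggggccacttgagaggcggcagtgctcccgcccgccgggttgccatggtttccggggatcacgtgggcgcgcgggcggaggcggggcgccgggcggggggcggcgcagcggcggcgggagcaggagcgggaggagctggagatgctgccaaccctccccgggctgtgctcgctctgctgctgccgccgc
Prkar1a, chr11:109650699-109650998, plus strand: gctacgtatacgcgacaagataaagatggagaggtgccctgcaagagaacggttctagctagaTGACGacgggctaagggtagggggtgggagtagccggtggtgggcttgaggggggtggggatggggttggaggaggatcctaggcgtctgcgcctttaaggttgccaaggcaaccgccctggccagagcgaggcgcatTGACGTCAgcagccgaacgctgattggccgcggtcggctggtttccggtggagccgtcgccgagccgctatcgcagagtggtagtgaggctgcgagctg
Gnai3, chr3:108146103-108146402, minus strand: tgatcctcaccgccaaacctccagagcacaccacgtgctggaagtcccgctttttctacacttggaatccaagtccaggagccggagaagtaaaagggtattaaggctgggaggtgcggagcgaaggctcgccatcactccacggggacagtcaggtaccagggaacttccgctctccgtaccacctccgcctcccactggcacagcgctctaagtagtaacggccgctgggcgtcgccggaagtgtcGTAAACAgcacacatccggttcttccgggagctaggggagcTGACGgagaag
Pde1b, chr15:103506876-103507175, plus strand: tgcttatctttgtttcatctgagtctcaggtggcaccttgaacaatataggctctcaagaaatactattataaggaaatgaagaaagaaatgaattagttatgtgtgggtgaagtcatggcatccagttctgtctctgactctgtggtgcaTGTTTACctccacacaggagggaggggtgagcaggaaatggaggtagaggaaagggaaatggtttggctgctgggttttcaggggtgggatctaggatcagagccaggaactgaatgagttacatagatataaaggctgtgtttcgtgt
Pde1c, chr6:56369585-56369884, minus strand: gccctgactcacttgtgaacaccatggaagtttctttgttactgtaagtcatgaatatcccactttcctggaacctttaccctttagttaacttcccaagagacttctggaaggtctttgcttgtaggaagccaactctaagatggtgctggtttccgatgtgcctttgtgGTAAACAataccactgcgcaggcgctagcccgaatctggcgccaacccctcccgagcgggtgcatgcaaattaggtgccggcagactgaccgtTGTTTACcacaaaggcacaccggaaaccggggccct
The Prkar2b window, of a regulatory subunit that fell, held none of the motifs, nor did the other Prkar2b window. The Prkar1a window, of a regulatory subunit that was not called, held the only TGACGTCA among the 39 genes, in 2 overlapping windows. The printed windows of Gnai3, Pde1b and Pde1c, which rose, held GTAAACA, which Gnai3 combined with a TGACG. Any other window of these genes lacked GTAAACA. The printed Prkar1a, Pde1b and Pde1c windows lie inside their genes (chr11:109649405-109669656, chr15:103503034-103530052 and chr6:56069804-56569103). Read counts are per gene and do not tell which start was used. Of the 84 windows, 2 (2.38%) held TGACGTCA, 22 (26.2%) held TGACG and 4 (4.76%) held GTAAACA. The shares among all 32851 windows of the RefSeq table were 1.79%, 20.8% and 3.65%. By gene, TGACG was in a window of 18 of the 39 genes (46.2%) and GTAAACA in a window of 4 (10.3%), against 23.0% and 4.05% of all 27025 genes of the RefSeq table. The 39 genes had more windows each (2.15 per gene, against 1.22 over all genes), and so more sequence in which a match could fall. TGACG was in a window of 6 of 11 genes called higher and 3 of 12 genes called lower. GTAAACA was in a window of 3 of 11 genes called higher and 0 of 12 genes called lower, and the other gene that held it was Akap6, which was not called. Windows per gene were not counted by direction, nor were motifs over all genes called higher or lower. A link between motif and direction can therefore not be read from these counts. A match is a run of letters and was not tested as a site.

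Among the β-adrenergic receptors Adrb3 was abundant in both groups. Adrb3 (ENSMUSG00000031489) lies on the minus strand of chromosome 8 (chr8:27225776-27250616, mm10). It had 85.3, 81.1, 80.0 and 73.2 CPM in siERK3 and 212, 189.8, 192 and 197 CPM in siNTC. The highest siERK3 library was under the lowest siNTC library by more than the whole range within either group. Its log2 fold change was −1.31 (SE 0.06, adjusted p = 4.20e-15). An antisense gene, Gm45470, covers 24.9% of the exon bases of Adrb3 and was lower by a similar size (log2 fold change −1.26). The libraries do not keep the strand, so reads in the shared bases cannot be assigned.

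Adrb1, the β1 receptor, was near the lower limit of the table and ran in the other direction. It had 3.38, 3.16, 3.70 and 3.56 CPM in siERK3 and 2.60, 2.79, 1.88 and 2.52 CPM in siNTC. All siERK3 libraries lay above all siNTC libraries, though by little. The log2 fold change of Adrb1 was 0.49 (SE 0.18, adjusted p = 0.0310). This call depended on single libraries and on the tool. With DESeq2 the adjusted p of Adrb1 was 0.108. It missed the threshold without siERK3 replicate 3 (0.0744), siERK3 replicate 4 (0.0589) or siNTC replicate 3 (0.105), and with upper-quartile scaling (0.0622). The fall of Adrb3 passed under all 16 alternatives run.

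Levels of different genes were compared per kb of merged exons, since longer transcripts gather more reads. On this scale Adrb3 had 23.7 ± 1.49 CPM per kb in siERK3 and 58.6 ± 3.01 CPM per kb in siNTC, and Adrb1 had 1.02 ± 0.069 CPM per kb in siERK3 and 0.724 ± 0.117 CPM per kb in siNTC (SD, n = 4 libraries each). Adrb3 was far above Adrb1 in both groups, and the rise of Adrb1 was small beside the fall of Adrb3. Sums, shares and ratios over the genes are given without a test, because the genes were chosen with results of these data known.

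**Figure D2:**
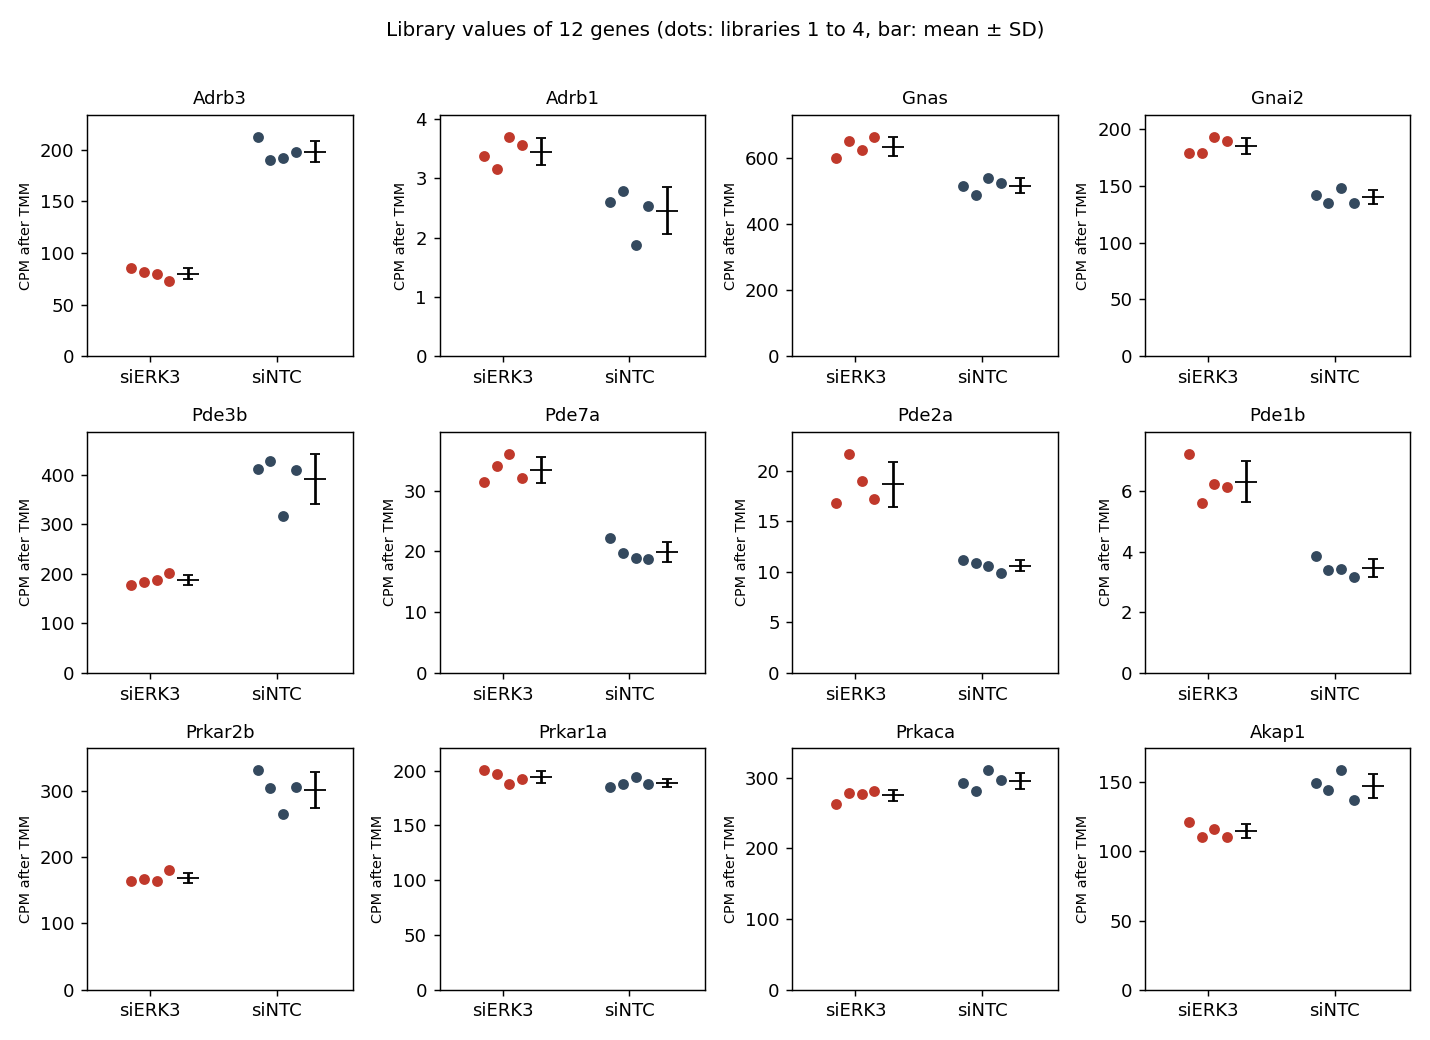
CPM after TMM scaling (y axis, from 0) of 12 genes in the 4 siERK3 libraries (red, left) and the 4 siNTC libraries (dark blue, right), with the mean and SD of each group as a bar. For Adrb3, Pde3b and Prkar2b the siERK3 libraries sit well under the siNTC libraries, for Gnas, Gnai2, Pde7a, Pde2a and Pde1b they sit above them, and for Prkar1a the groups overlap (188 to 200.4 CPM in siERK3 and 185 to 194 CPM in siNTC).

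The 3 G protein α subunits among the 49 genes, the stimulatory Gnas and the inhibitory Gnai2 and Gnai3, rose in siERK3. The share of all genes called higher was 24.9%. The inhibitory-class subunit Gnao1, of the neighboring genes, fell (101 ± 3.41 CPM in siERK3 and 129.9 ± 2.72 CPM in siNTC, SD, n = 4 libraries each, log2 fold change −0.37, adjusted p = 2.24e-06). Gnas, the stimulatory α subunit, had 600.0, 651, 624 and 665 CPM in siERK3 and 515, 488, 539.6 and 524 CPM in siNTC. The groups were apart, and its log2 fold change was 0.30 (SE 0.05, adjusted p = 5.11e-05). Gnai2, an inhibitory α subunit, had 179, 179, 193 and 189 CPM in siERK3 and 142, 135, 148 and 135 CPM in siNTC. Its log2 fold change was 0.40 (SE 0.05, adjusted p = 8.93e-07), and its groups were apart as well. Gnai3, also inhibitory, had 74.9, 75.5, 78.6 and 83.4 CPM in siERK3 and 64.3, 77.6, 56.5 and 66.9 CPM in siNTC. The second siNTC library lay inside the siERK3 range, and the log2 fold change of Gnai3 was 0.24 (SE 0.07, adjusted p = 0.00937). This call was lost with upper-quartile scaling (adjusted p = 0.0607). Gnas shares 13.1% of its exon bases with Gm20721 on the other strand (612 CPM in siERK3 and 499.7 CPM in siNTC on average). Gm20721 rose by the same size (log2 fold change 0.29), and reads in the shared bases cannot be assigned. The ratio of Gnas to the sum of Gnai2 and Gnai3, per kb, was 0.762, 0.825, 0.741 and 0.786 in siERK3 and 0.804, 0.733, 0.854 and 0.833 in siNTC. These ranges overlapped, so for these 3 genes no shift of the ratio exceeded the spread of the libraries. Gnao1 and Gnal are not in this ratio. Gnal, a stimulatory-class subunit of the neighboring genes, rose (53.3 ± 4.76 CPM in siERK3 and 36.8 ± 3.76 CPM in siNTC). Its log2 fold change was 0.53 (adjusted p = 2.83e-06, edgeR's quasi-likelihood test).

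Of 7 adenylyl cyclases tested, 3 fell in siERK3 (Adcy5, Adcy6 and Adcy10), 4 did not pass (Adcy2, Adcy3, Adcy7 and Adcy9) and none rose. The share called was 42.9%, against 48.7% of all genes, and the share of all genes called lower was 23.8%. Adcy6, one of the calcium-inhibited membrane cyclases, had the highest level per kb of the family. It had 144, 138, 135 and 132 CPM in siERK3 and 158, 157, 158 and 155 CPM in siNTC. The groups did not overlap, but the difference was small (log2 fold change −0.19, SE 0.05, adjusted p = 0.00266). The call for Adcy6 was lost when library sizes were used in place of TMM factors (adjusted p = 0.0939), a change that moves the median of all genes to 0.09 on the log2 scale. An antisense gene, Gm29331, covers 8.92% of its exon bases (log2 fold change −0.18). Adcy10, the soluble cyclase that responds to bicarbonate, was the gene with the largest log2 fold change of the 48 and one of the least abundant. It had 0.676, 0.691, 0.389 and 0.791 CPM in siERK3 and 2.08, 1.34, 1.67 and 1.89 CPM in siNTC. These are 4 to 8 reads per siERK3 library, and the log2 fold change was −1.44 (SE 0.30, adjusted p = 0.000328). Adcy5, the close relative of Adcy6, had a log2 fold change of −0.44 (adjusted p = 0.00301). Adcy9, second in level, had 35.5 to 39.1 CPM in siERK3 and 39.1 to 42.4 CPM in siNTC and did not pass (adjusted p = 0.122). The summed level of the cyclases was 32.3 ± 0.875 CPM per kb in siERK3 and 37.0 ± 0.901 CPM per kb in siNTC (SD, n = 4 libraries each).

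Phosphodiesterases went both ways. Of 17 tested, 8 rose, 6 fell and 3 did not pass, and Pde11a (0.676 to 1.36 CPM in siERK3 and 0.930 to 1.46 CPM in siNTC) was not tested. Thus 82.4% of those tested were called, against 48.7% of all genes (24.9% higher and 23.8% lower). The count goes by gene symbol, and its risers include Pde6d, a chaperone, and Pde6h, an inhibitory subunit. Pde3b, which insulin activates to lower cAMP in fat cells, is on the plus strand of chromosome 7 (ENSMUSG00000030671, chr7:114415281-114539251). It had 178, 184, 187 and 202 CPM in siERK3 and 413, 429, 316 and 409.8 CPM in siNTC. siNTC replicate 3 stood low but was still far above every siERK3 library. The log2 fold change was −1.06 (SE 0.07, adjusted p = 2.29e-11), and it passed under all 16 alternatives, among them the fit without siNTC replicate 3. Pde1a, a calmodulin-activated enzyme of cAMP and cGMP, fell less, with 47.2, 54.2, 52.5 and 56.9 CPM in siERK3 and 75.6, 76.3, 66.1 and 77.4 CPM in siNTC. Its log2 fold change was −0.49 (SE 0.07, adjusted p = 1.36e-06).

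The calmodulin-activated relatives of Pde1a moved the other way. Pde1b had 7.25, 5.63, 6.23 and 6.13 CPM in siERK3 and 3.85, 3.41, 3.44 and 3.16 CPM in siNTC, with a log2 fold change of 0.86 (SE 0.15, adjusted p = 4.43e-05). Pde1c had 2.51, 4.94, 5.26 and 6.43 CPM in siERK3 and 3.33, 1.86, 2.40 and 3.05 CPM in siNTC, with a log2 fold change of 0.84 (SE 0.24, adjusted p = 0.00512). The Pde1b groups were apart, while the first siERK3 library of Pde1c lay inside the siNTC range. Pde2a, which cGMP stimulates, had 16.8, 21.7, 19.0 and 17.2 CPM in siERK3 and 11.1, 10.8, 10.5 and 9.89 CPM in siNTC. All siERK3 libraries exceeded all siNTC libraries of Pde2a, with a log2 fold change of 0.82 (SE 0.10, adjusted p = 3.77e-07). Gm45837, a gene on the same strand, covers 64.3% of the exon bases of Pde2a and rose less (log2 fold change 0.42). Pde10a, a further enzyme of both nucleotides, also rose (log2 fold change 0.38, adjusted p = 0.000493).

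Among the phosphodiesterases specific for cAMP, 2 rose (Pde4a and Pde7a), 2 fell (Pde4d and Pde8a) and 3 did not pass (Pde4b, Pde7b and Pde8b). Here 57.1% were called, against 48.7% of all genes. Pde7a had 31.4, 34.1, 36.1 and 32.1 CPM in siERK3 and 22.2, 19.7, 19.0 and 18.7 CPM in siNTC, a log2 fold change of 0.75 (SE 0.08, adjusted p = 2.48e-08). Pde4a had 16.1, 17.8, 18.1 and 14.6 CPM in siERK3 and 10.1, 13.0, 13.4 and 10.6 CPM in siNTC, a log2 fold change of 0.50 (SE 0.11, adjusted p = 0.000423). Both genes had every siERK3 library above every siNTC library. Pde4d and Pde8a, the most abundant of these enzymes per kb, moved by less. Pde4d had 70.0, 64.5, 69.0 and 66.4 CPM in siERK3 and 78.3, 84.7, 82.8 and 82.4 CPM in siNTC, a log2 fold change of −0.28 (SE 0.05, adjusted p = 0.000130). Pde8a had a log2 fold change of −0.20 (adjusted p = 0.0121), and it missed the threshold without scaling factors (adjusted p = 0.151). The family members therefore differed in direction within the Pde1 and Pde4 genes.

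The photoreceptor phosphodiesterase genes are known for the retina, and 4 of them were tested here. Pde6d, a chaperone that binds prenylated proteins in many tissues, had 28.4, 25.3, 25.0 and 25.7 CPM in siERK3 and 16.4, 14.0, 16.8 and 15.9 CPM in siNTC, a log2 fold change of 0.73 (SE 0.08, adjusted p = 1.06e-07). Its groups were far apart for a gene of this level. Pde6h, the inhibitory subunit of cones, had 18.4, 22.0, 20.0 and 17.4 CPM in siERK3 and 10.8, 13.6, 15.1 and 14.9 CPM in siNTC, a log2 fold change of 0.51 (adjusted p = 0.000281). Arhgdib, a gene on the other strand with 20.7 CPM in siERK3 and 14.3 CPM in siNTC on average, shares 1.73% of the exon bases of Pde6h and rose by nearly the same size (log2 fold change 0.53). Pde6b, a catalytic subunit of rods, had 1.06, 0.494, 0.973 and 1.68 CPM in siERK3 and 1.98, 3.20, 2.50 and 1.79 CPM in siNTC, a log2 fold change of −1.16 (SE 0.29, adjusted p = 0.00216). These Pde6b values rest on few reads, and the nearest libraries of the groups almost touched. Pde6a, the other rod catalytic subunit, had 85.4 to 101 CPM in siERK3 and 96.2 to 109 CPM in siNTC, ranges that overlapped, and a log2 fold change of −0.18 (adjusted p = 0.0143), which was lost without siERK3 replicate 2 (0.0561).

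Pde3b carried the change in the summed level of phosphodiesterase transcript. Over the 14 phosphodiesterase genes outside the photoreceptor family, the sum was 57.2 ± 1.68 CPM per kb in siERK3 and 80.4 ± 6.43 CPM per kb in siNTC (SD, n = 4 libraries each). Without Pde3b the sums of the rest overlapped, with 35.4, 37.1, 37.3 and 36.8 CPM per kb in siERK3 and 37.8, 38.1, 36.3 and 37.6 CPM per kb in siNTC. Pde3b made up 35.5%, 35.2%, 35.5% and 37.6% of the sum in siERK3 and 54.5%, 55.3%, 48.9% and 54.5% in siNTC. Pde7a made up 7.54% ± 0.437 in siERK3 and 3.20% ± 0.286 in siNTC. Of the 13 other genes in the sum, 6 rose and 3 fell, while 24.9% of all genes were called higher and 23.8% lower. Per kb of merged exons, the summed level of these 13 genes differed by less than the spread of the libraries.

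Of 4 regulatory subunits of PKA tested, the type II forms Prkar2b and Prkar2a fell, and the type I forms Prkar1a and Prkar1b did not pass. Thus 2 of 4 were called, while 48.7% of all genes were called and 23.8% were called lower. A difference between the types was not tested. Prkar2b, the type IIβ subunit of fat and brain, lies on the minus strand of chromosome 12 (ENSMUSG00000002997, chr12:31958476-32061296). It had 163, 167, 163 and 181 CPM in siERK3 and 331, 304, 266 and 306 CPM in siNTC. Although siNTC replicate 3 was the lowest of its group, it was far above the highest siERK3 library. The log2 fold change was −0.84 (SE 0.06, adjusted p = 5.96e-11), and it passed under all 16 alternatives. Prkar2a, the type IIα subunit, had 46.7, 49.8, 50.4 and 49.5 CPM in siERK3 and 64.9, 68.1, 56.6 and 58.8 CPM in siNTC, a log2 fold change of −0.34 (SE 0.06, adjusted p = 0.000105). Prkar1a, the widespread type Iα subunit, had 200.4, 197, 188 and 192 CPM in siERK3 and 185, 188, 194 and 188 CPM in siNTC. These groups overlapped, and the log2 fold change of Prkar1a was 0.04 (SE 0.05, adjusted p = 0.505), though it passed as higher without scaling factors (log2 fold change 0.13, adjusted p = 0.0335). Prkar1b was low in both groups (1.56 to 2.51 CPM in siERK3 and 1.79 to 3.20 CPM in siNTC). At this level a failure to pass says little.

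The make-up of the regulatory pool differed between the groups. Per kb, Prkar2b was 0.965, 1.00, 1.03 and 1.11 times Prkar1a in siERK3 and 2.11, 1.91, 1.62 and 1.92 times Prkar1a in siNTC. Prkar2b made up 45.1%, 45.8%, 46.3% and 48.4% of the regulatory transcript in siERK3 and 62.8%, 60.2%, 57.3% and 61.2% in siNTC. Prkar1a made up 45.3% ± 1.40 in siERK3 and 32.1% ± 2.35 in siNTC (SD, n = 4 libraries each). In siERK3 the subunits were thus near parity, and in siNTC Prkar2b led in every library.

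The catalytic subunits did not pass the test. Prkaca, the main catalytic subunit and the gene with the highest level per kb of merged exons in both groups, had 263, 279, 277 and 281 CPM in siERK3 and 293, 282, 310.4 and 296 CPM in siNTC. The ranges did not overlap but came within a few CPM of each other, and the log2 fold change was −0.10 (SE 0.05, adjusted p = 0.0944). Prkaca passed with upper-quartile scaling (adjusted p = 0.00621) and without siNTC replicate 2 (adjusted p = 0.0464). Prkacb had 58.2 to 62.2 CPM in siERK3 and 52.5 to 62.8 CPM in siNTC (log2 fold change 0.04, adjusted p = 0.653). The summed regulatory level over the summed catalytic level was 0.882, 0.838, 0.815 and 0.853 in siERK3 and 1.16, 1.15, 0.972 and 1.09 in siNTC. Every siERK3 library had a ratio under every siNTC library. These are ratios of transcript per kb and not of protein.

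**Figure D3:**
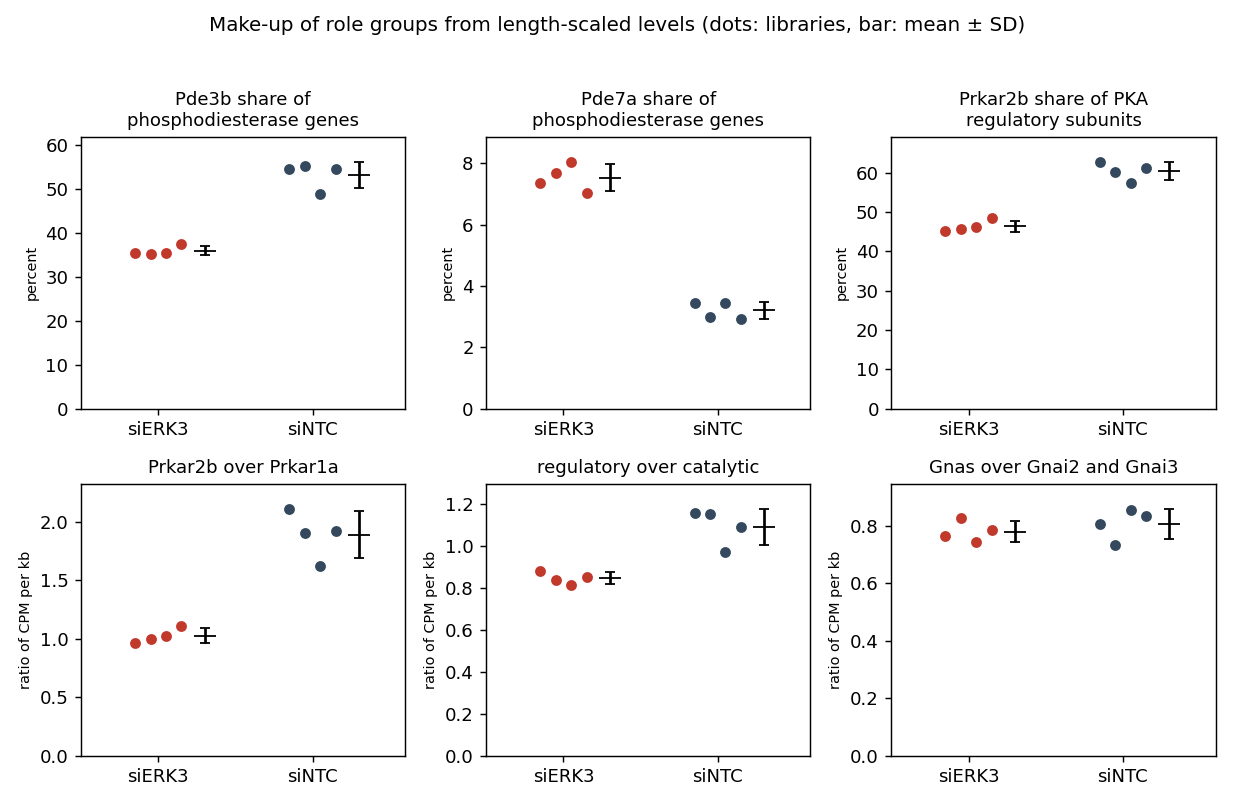
Shares (percent) and ratios from length-scaled levels in the 4 siERK3 libraries (red, left) and the 4 siNTC libraries (dark blue, right), with the mean and SD as a bar and all y axes from 0. The Pde7a share was higher in every siERK3 library than in every siNTC library, while the Pde3b and Prkar2b shares, the Prkar2b over Prkar1a ratio and the regulatory over catalytic ratio were lower in every siERK3 library than in every siNTC library, and the Gnas over Gnai2 and Gnai3 ratio overlapped (0.741 to 0.825 in siERK3 and 0.733 to 0.854 in siNTC).

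The anchoring proteins also went both ways. Of 10 tested, 5 fell (Akap1, Akap2, Akap7, Akap8 and Akap9), 2 rose (Akap10 and Akap12) and 3 did not pass (Akap6, Akap11 and Akap13). This made 70.0% called, against 48.7% of all genes (24.9% higher and 23.8% lower). Akap1, which holds PKA at the outer mitochondrial membrane, had the highest level per kb of the family. It had 121, 111, 116 and 111 CPM in siERK3 and 149, 144, 159 and 138 CPM in siNTC, without overlap. Its log2 fold change was −0.36 (SE 0.06, adjusted p = 9.01e-06). Akap12, a scaffold at the plasma membrane, had 143, 115, 136 and 141 CPM in siERK3 and 101, 98.4, 91.4 and 94.9 CPM in siNTC. All siERK3 libraries were above all siNTC libraries, with a log2 fold change of 0.47 (SE 0.06, adjusted p = 1.44e-06). The other falls ran between −0.40 and −0.20 on the log2 scale, and Akap10 rose by 0.32. Akap9 was the least stable of these calls, with overlapping groups (48.5 to 65.8 CPM in siERK3 and 58.1 to 73.0 CPM in siNTC) and an adjusted p of 0.0386 that reached 0.182 without siERK3 replicate 2 and 0.246 with library sizes only. Akap2 shares 84.4% of its exon bases with Pakap on the same strand, whose log2 fold change was −0.47, so these reads cannot be assigned to 1 of them.

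The cGMP kinases did not pass. Prkg1 had 101 to 111 CPM in siERK3 and 105 to 117 CPM in siNTC (log2 fold change −0.07, adjusted p = 0.322), and Prkg2 had 6.09 ± 0.406 CPM in siERK3 and 7.32 ± 0.920 CPM in siNTC (log2 fold change −0.26, adjusted p = 0.101). With upper-quartile scaling both passed as lower, Prkg1 at an adjusted p of 0.0391 and Prkg2 at an adjusted p of 0.0381.

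Per kb of exon, the order of the genes shifted at its top. In siERK3 the order began with Prkaca (111 ± 3.27 CPM per kb), Gnas (56.8 ± 2.58), Gnai2 (49.0 ± 1.88), Prkar2b (46.1 ± 2.25) and Prkar1a (45.0 ± 1.26). In siNTC it began with Prkaca (119 ± 4.74 CPM per kb), Prkar2b (82.6 ± 7.38), Adrb3 (58.6 ± 3.01), Gnas (46.2 ± 1.95), Prkar1a (43.7 ± 0.836) and Pde3b (43.0 ± 5.62), each as mean ± SD of 4 libraries. Adrb3 was at place 8 and Pde3b at place 10 in siERK3. In siERK3 the library range of Prkar2b overlapped those of Gnai2 and Prkar1a, while every library had Gnai2 above Prkar1a. In siNTC the ranges of Gnas, Prkar1a and Pde3b overlapped, so their order is not resolved. The top of the order depended on the length used. Per kb of the longest transcript, Gnas came first in siERK3 (161 ± 7.31 CPM per kb, against 121 ± 3.58 for Prkaca), and its range overlapped that of Prkaca in siNTC (131 ± 5.54 for Gnas and 129.7 ± 5.18 for Prkaca). On that scale Prkar1a (53.6 to 57.0 CPM per kb) was above Prkar2b (48.3 to 53.5 CPM per kb) in every siERK3 library. The range over the 49 genes ran down to 0.0729 CPM per kb in siERK3 (Adcy10) and 0.133 CPM per kb in siNTC (Pde1c).

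**Figure D4:**
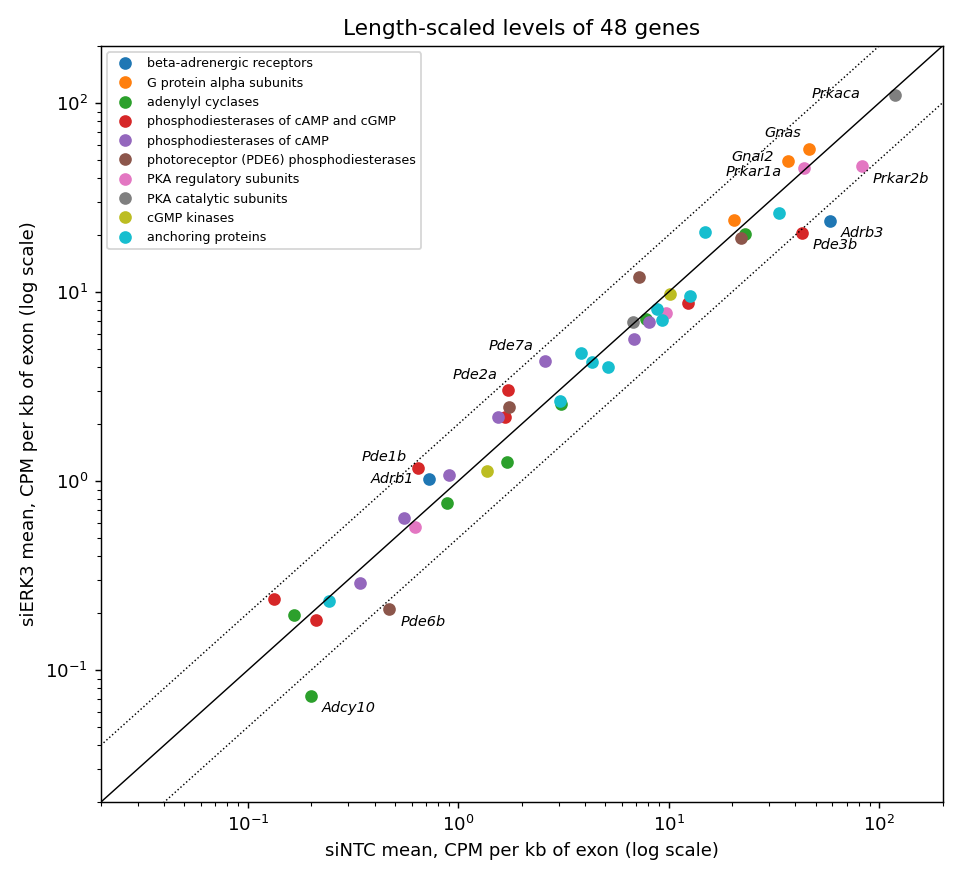
Mean level per kb of merged exons of 48 genes in siERK3 (y axis, log scale) and in siNTC (x axis, log scale), colored by role, with equality as a solid line and 2-fold differences as dotted lines. Adrb3 (23.7 CPM per kb in siERK3 and 58.6 in siNTC) and Pde3b (20.6 in siERK3 and 43.0 in siNTC) lie under the lower dotted line among the abundant genes, while Prkaca and Prkar1a lie near equality.

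Genes that stand next to the pathway were taken from a list of 70, of which 54 were in the table and tested. Of these 20 rose, 14 fell and 20 did not pass, so 63.0% were called, against 48.7% of all genes (24.9% higher and 23.8% lower), and their median log2 fold change was 0.02. The largest rises were those of Gnb4, a G protein β subunit, Gem, a small GTPase whose gene cAMP can induce, and Fos, an immediate early gene. Gnb4 had 5.89, 6.71, 4.48 and 5.24 CPM in siERK3 and 2.08, 2.27, 2.30 and 1.68 CPM in siNTC (log2 fold change 1.41, adjusted p = 9.39e-07). Gem had 5.80, 7.60, 6.33 and 7.71 CPM in siERK3 and 2.40, 2.58, 2.82 and 3.89 CPM in siNTC (log2 fold change 1.23, adjusted p = 2.29e-06). Fos had 3.86, 4.24, 4.87 and 4.45 CPM in siERK3 and 1.98, 2.17, 1.98 and 1.79 CPM in siNTC (log2 fold change 1.13, adjusted p = 1.44e-05). None of these groups overlapped, and all 3 genes were low in both groups.

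The largest falls were those of Pck1, an enzyme of glyceroneogenesis whose gene cAMP can induce, Rgs4, which shortens G protein signaling, and Gipr, the receptor of the gut hormone GIP. Pck1 had 71.1, 70.9, 73.8 and 75.6 CPM in siERK3 and 320.1, 294, 291 and 320.2 CPM in siNTC (log2 fold change −2.07, adjusted p = 1.46e-19). Rgs4 had 0.966, 0.592, 1.17 and 0.989 CPM in siERK3 and 3.23, 3.41, 3.13 and 3.58 CPM in siNTC (log2 fold change −1.83, adjusted p = 5.73e-07). Gipr had 0.580, 0.691, 0.389 and 0.495 CPM in siERK3 and 1.15, 2.27, 2.19 and 1.05 CPM in siNTC (log2 fold change −1.61, adjusted p = 0.000530). Of these only Pck1 was abundant, and all had their groups apart.

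By role, these neighbors again moved in both directions. Of 12 other G protein subunits 6 rose and 3 fell (75.0% called, against 48.7% of all genes). Of 14 receptors and desensitising proteins of fat cells 3 rose and 6 fell (64.3% called). Of 13 genes of CREB, its coactivators and their kinases 3 rose and 2 fell (38.5% called, under the 48.7% of all genes). The CREB coactivators Crtc1, Crtc2 and Crtc3 rose, while the coactivator Crebbp and the kinase Sik3 fell (log2 fold changes −0.19 and −0.36). Of 11 genes that cAMP is known to induce, 4 rose (Cebpb, Nr4a2, Fos and Gem), 3 fell (Pck1, Irs2 and Nr4a1) and 4 did not pass. Together 63.6% were called, against 48.7% of all genes. Of 10 listed inhibitors of PKA and other effectors of cAMP, 4 were in the table, and all 4 rose. Of all genes, 24.9% were called higher. They were the PKA inhibitors Pkia and Pkig, the PKA-related kinase Prkx and the exchange factor Rapgef3 (log2 fold changes 0.61, 0.32, 0.59 and 0.96). The Pkia groups overlapped (3.60 to 5.22 CPM in siERK3 and 2.19 to 3.89 CPM in siNTC). Pkia and Pkig had mean levels of 4.33 and 29.7 CPM in siERK3 and 2.84 and 23.8 CPM in siNTC.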

How the data were processed

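Poly(A) RNA of differentiated 3T3-L1 adipocytes was sequenced in 8 libraries, 4 siERK3 and 4 siNTC by their labels, with a kit that does not keep the strand. The authors deposited raw counts per gene. The table holds 18088 genes that all pass 1 CPM in 4 libraries or more. The submitters' processing notes name bcl2fastq, FastQC, Bowtie2, edgeR and the build mm10. The counting program, the annotation and its strand setting are not given in the sources used here, so overlapping genes can share reads. A deposited table of the authors' own comparison (log2 fold changes, mean log2 CPM, p-values and adjusted p-values) was not used.

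Counts were tested in R 4.3.3 with edgeR 4.0.16: filterByExpr (minimum count 10, minimum total 15), TMM factors and the quasi-likelihood test of siERK3 over siNTC without covariates, with Benjamini-Hochberg adjustment over all 17972 genes tested. Variation between libraries beyond counting error was 6.08% (edgeR's common coefficient), and the sources do not say what separated the libraries of a group. Total counts of 9854522 to 9943572 per library leave genes near 1 CPM with about 10 reads. The fits were tested on simulated data. Levels between genes are CPM per kb of merged exons of GENCODE M21 (mm10). Promoter windows came from RefSeq (GRCm38.p6). Figures and summaries used Python 3.11.15.

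The 49 genes, the neighboring pathway genes and the marker lists were chosen with earlier results of these data known. Full values are given for Mapk6, for called genes with an absolute log2 fold change of at least 0.5, for up to 2 genes of each role with the highest level per kb, for Adrb1, Adrb3, Prkar1a and Prkar2b, and for the 3 neighboring genes with the largest called change in each direction. Of the 49 genes, 1 is counted but not reported here. Gnai3, Gnao1, Prkar2a, Pde10a, Adcy5, Akap9 and others outside this rule were named after their values were seen. Alternatives were RLE and upper-quartile factors, no scaling factors, a filter of 5 CPM in 4 libraries or none, DESeq2 1.42.0, limma-voom (limma 3.58.1), the replicate number as a block, and leaving out each library. The length of the longest transcript in place of merged exons was added after the data were seen.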

Additional observations from a re-analysis of the deposited data

Results flagged for a closer look

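In 3 of 112 groups of 4 libraries (2 groups for each of 56 genes), 1 library stood apart by Dixon's criterion at its 95% level, which chance passes in about 5% of groups. Akap8 had 87.6 CPM in siNTC replicate 1 and 78.1 to 78.6 CPM in the other siNTC libraries. Pde3b had 316 CPM in siNTC replicate 3 and 409.8 to 429 CPM in the other siNTC libraries, and Pde1a had 66.1 CPM there and 75.6 to 77.4 CPM in the others. The falls of all 3 genes passed edgeR's quasi-likelihood test without the library named.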

How the results depend on the processing

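Of the 32 called genes, 25 kept their call and direction under all alternatives that tested them, 7 missed the threshold under at least 1 (Adcy6, Adrb1, Akap9, Gnai3, Pde6a and Pde8a among them), and 8 genes not called passed under at least 1. Over 759 pairs of a gene and an alternative, 725 kept the call, 20 lost it, 14 gained it and 0 of the called ones changed direction. Adrb3 ranged from −1.38 to −1.22, Pde3b from −1.15 to −0.98 and Prkar2b from −0.91 to −0.75 on the log2 scale. The counts of genes called stayed between 12 and 16 higher and between 14 and 24 lower. The median of all genes moved to −0.07 with upper-quartile factors and to 0.09 with library sizes only, and that of the 48 genes to −0.19 and −0.03. Leaving out 1 library gave 13 to 15 genes higher and 16 to 19 lower.

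The replicate block also gave 14 genes higher and 18 lower, the same 32 genes, and 16 in place of 14 of the neighboring pathway genes lower. The replicate numbers did not pair the libraries: correlations of deviations between same-numbered libraries were 0.01, 0.00, 0.06 and −0.02.

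With the longest transcript in place of merged exons, Prkar2b was 43.0% of the regulatory transcript in siERK3 and 57.0% in siNTC, 0.902 and 1.66 times Prkar1a, and Pde3b was 32.4% of the phosphodiesterase sum in siERK3 and 49.0% in siNTC. The ratio of Gnas to Gnai2 and Gnai3 moved to between 1.42 and 1.59 in siERK3 and between 1.46 and 1.63 in siNTC, overlapping as before, and Gnas took the first place in level from Prkaca. Genes under about 2 CPM (Adcy10, Pde6b and Pde11a among them) rest on few reads per library, and a difference in them that did not pass was not detectable at this depth. Counting error and the spread of 4 libraries limit the precision, and no protein or cAMP was measured in these files.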
